A study of Mus musculus and synthetic construct with 3 samples.

Results

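Filamin A (Flna), alpha-actinin-1 (Actn1), zyxin (Zyx), the cysteine and glycine-rich proteins Csrp1 and Csrp2, vinculin (Vcl), talin-1 (Tln1), leiomodin-1 (Lmod1) and synaptopodin-2 (Synpo2) are 9 of the 32285 genes in the matrix. They were selected on symbol, as genes of the actin-linked LIM and focal adhesion machinery, with levels in AAA and control aortas and in hexagon classes of these sections already in view, and no threshold was set. Levels and folds between AAA and control aortas are therefore given as a description, with calls from the fit over all genes and no p, as are those between hexagon classes.

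In SMCs and fibroblasts, integrins at the cell surface are coupled to actin filaments by talin and vinculin at focal adhesions. Alpha-actinin and filamin cross-link the filaments, and zyxin, whose LIM domains bind other proteins, is recruited where the filaments are under strain. In vascular SMCs, Csrp1 and Csrp2 are LIM-only proteins of the actin cytoskeleton, Lmod1 nucleates actin filaments, and Synpo2 binds actin and alpha-actinin.

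The study applied Seq-Scope, in which poly(A) RNA of a tissue section is caught by an array of spatial barcodes, to suprarenal abdominal aortas of male Apoe-/- mice on a normal diet. The labels give an age of 16 weeks at minipump implantation, and the methods of the study a younger one, so the age is in doubt. AAA mice had received AngII for 4 weeks and were the 3 of 5 infused mice that developed an aneurysm, while control mice were 3 of 5 given saline. All mice carried the Apoe-/- genotype by label, 1 control and 1 AAA aorta were embedded together in each pair, and 10 sections per condition (10 μm thick) lay on 1 lane of the array.

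The matrix was deposited for all sections together, so sections were placed along the lane by the published section map, which also gave condition and mouse. After partition into hexagons with 12 μm sides, 4877 hexagons held 75 or more genes (kept hexagons). The study reported many more hexagons at the same side and gene minimum. The kept hexagons are thus not the set of the study, and the reason for the difference was not tested. Control mice had 94 to 279 kept hexagons with 9581 to 34106 UMIs, and AAA mice had 876 to 2608 with 95523 to 331867 UMIs. All barcodes of the sections together gave 150882 to 203399 UMIs per control mouse and 462593 to 976945 per AAA mouse. A hexagon was given the smooth muscle, collagen, macrophage, adipocyte or hemoglobin class by the marker list with the most UMIs in it, at least 2. None of these markers was a member. Levels are exonic UMIs per 10000 UMIs of all genes, the replicate is the mouse (n = 3 per condition), and less RNA per cell cannot be told apart from fewer cells of a type. A level of 1 gene is not compared with that of another, since it was not scaled by length.

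The aortic wall was represented in every mouse. The 6 contractile genes that mark the smooth muscle class (Acta2, Tagln, Myl9, Myh11, Tpm2 and Cnn1) were all detected and summed to 222 to 311 UMIs per 10000 in control mice and 73.3 to 122 in AAA mice over kept hexagons. The smooth muscle class took 52.3% to 67.0% of kept hexagons in control mice and 12.9% to 22.4% in AAA mice, while the collagen class took 5.32% to 10.8% and 32.0% to 37.8%. Markers of tissue other than aorta were found throughout. A list of 6 hepatocyte genes (Alb, Apoa1, Apoa2, Mup20, Ttr and Serpina1c) reached 142 to 219 UMIs per 10000 in control mice and 158 to 172 in AAA mice, and 4 intestinal genes reached 60.4 to 90.2 and 67.3 to 71.7. Of 5 genes of platelets, whose cells also hold talin, filamin and vinculin, Gp9 was at 0, and the list reached 0 to 1.04 per 10000 in control and 0.724 to 0.994 in AAA mice. The part of such RNA in the levels below was not tested.

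The members lie on 8 chromosomes. In GRCm38 (GENCODE), Flna is at chrX:74223461-74249820 and Actn1 at chr12:80167547-80260371, both on the minus strand, and Csrp2 is at chr10:110919789-110939622 on the plus strand. Csrp1 (chr1:135720061-135752232) and Lmod1 (chr1:135324807-135368065) are both on chromosome 1. Synpo2 is at chr3:123076519-123236149, Tln1 at chr4:43531519-43562691, Zyx at chr6:42349630-42360213 and Vcl at chr14:20929398-21033676. Exons of Tln1 overlap those of Creb3, Vcl those of Ap3m1 and Zyx those of Epha1, in each case on the opposite strand, and these neighbors had 161, 108 and 3 UMIs in the sections.

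CArG boxes, the sites bound by serum response factor that many contractile genes carry, were searched on both strands from 250 bases before to 50 after each RefSeq start (GRCm38.p6). Of the 8 members with such a window (Csrp2 had none), 1 held a box, against 1.81% of 27025 genes. That member was Vcl, and the box is shown in capitals with that of Myl9, a contractile gene, for comparison. The Vcl stretch is chr14:20929161-20929190 and the Myl9 stretch chr2:156775293-156775322, both on the plus strand, with the box ending 218 and 152 bases before the start.
Vcl: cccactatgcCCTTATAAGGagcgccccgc
Myl9: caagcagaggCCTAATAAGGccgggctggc
Among the 11 contractile genes with a window, 2 held a box. A window without these letters says nothing of sites elsewhere in the gene.

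Over kept hexagons, RNA of the cross-linkers Flna and Actn1, of Csrp2 and of Synpo2 was called lower in AAA aortas, while levels of Zyx and Tln1 overlapped between the groups. Flna was at 29.6, 39.0 and 26.1 UMIs per 10000 in control mice 1, 2 and 3, and at 11.9, 13.3 and 13.6 in AAA mice 1, 2 and 3, the order used throughout. Actn1, which bundles actin filaments, was at 11.4, 11.5 and 9.39 in control and 4.16, 3.98 and 4.29 in AAA mice. Every AAA mouse lay below every control mouse for both genes, and the AAA mice lay within a narrow range.

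Csrp2 was at 9.97, 9.18 and 8.35 in control and 3.50, 3.26 and 3.25 in AAA mice. Synpo2 was at 3.81, 5.35 and 4.17 in control and 1.42, 1.63 and 1.26 in AAA mice, on 24 and 77 UMIs. Again no AAA mouse reached the lowest control mouse. Csrp1, the paralog of Csrp2, was at 10.6, 10.7 and 11.5 in control and 6.03, 5.97 and 8.27 in AAA mice, a narrower gap, although the groups did not overlap either.

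Tln1, which links integrin tails to actin, was at 4.98, 6.12 and 10.4 in control and 4.22, 4.79 and 5.97 in AAA mice. Zyx was at 1.76, 2.29 and 6.26 in control and 2.86, 2.35 and 2.72 in AAA mice. For both, the groups overlapped, and control mouse 3, the most shallow library, was the highest of all 6 mice. Vcl, which reinforces talin at the adhesion, was at 2.64, 1.53 and 3.13 in control and 0.934, 1.36 and 1.36 in AAA mice. Lmod1 was at 2.05, 0.765 and 1.04 in control and 0.452, 0.543 and 0.523 in AAA mice. Both were lower in each AAA mouse, but on 14 and 9 UMIs in all control mice, too few to pass the filter on low counts. Of the 7 members that passed it, AAA and control mice did not overlap for 5, as for 9.43% of the tested genes in this direction.

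**Figure D1:**
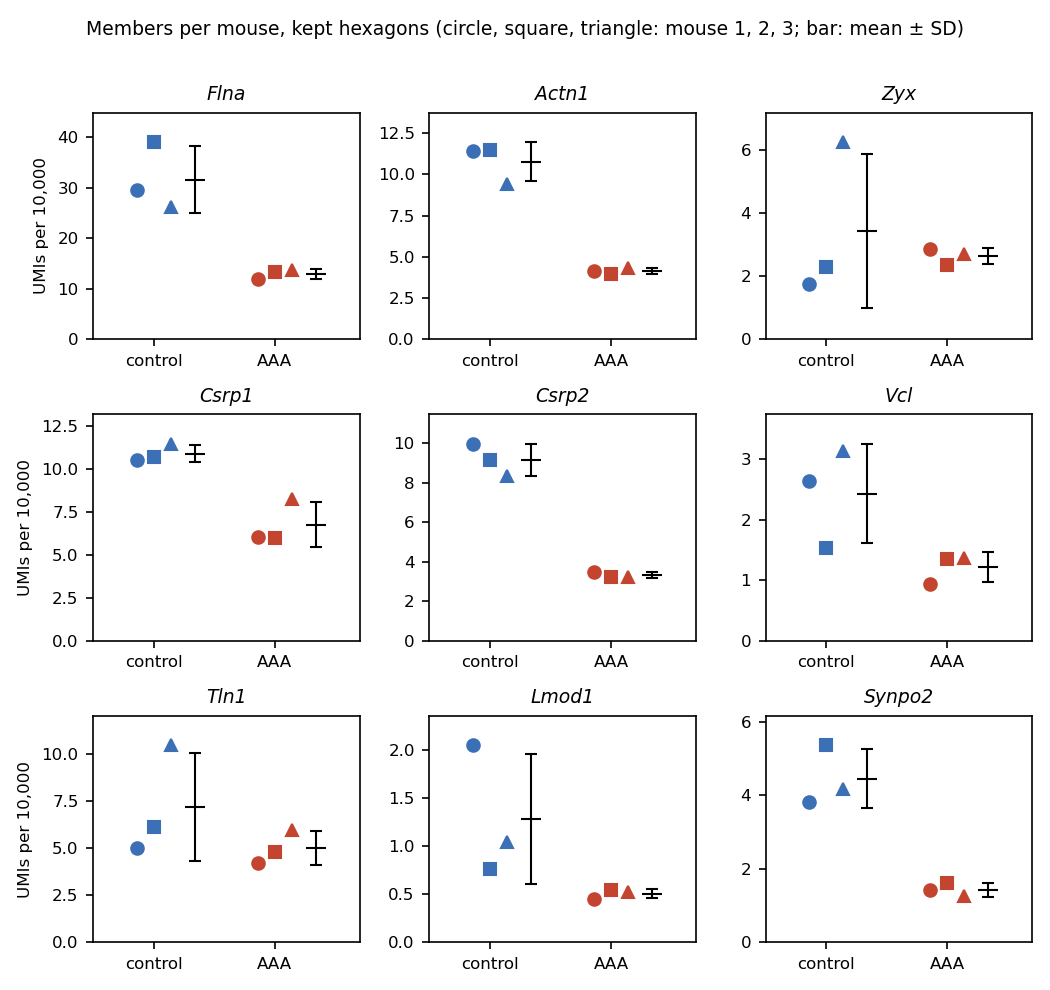
Level of each member over kept hexagons, in UMIs per 10000 UMIs (y axes start at 0), for 3 control (blue) and 3 AAA (red) mice; symbols mark the mouse number and black bars the mean and SD. Flna, Actn1, Csrp2 and Synpo2 show AAA mice well below control mice. Zyx overlaps through control mouse 3, and Tln1 through control mouse 1, which lies below AAA mouse 3.

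In edgeR's quasi-likelihood test over 1145 genes (Benjamini-Hochberg adjustment, threshold 0.05), 7 of the 9 members were tested and 4 were called lower in AAA, namely Flna, Actn1, Csrp2 and Synpo2. None was called higher. Of all tested genes 3.67% were called lower and 2.01% higher, and since the members were proposed with these values known, nothing is read from the difference. The log2 fold was -1.31 ± 0.20 (SE) for Flna, -1.43 ± 0.24 for Actn1, -1.50 ± 0.26 for Csrp2 and -1.57 ± 0.38 for Synpo2. Csrp1 (-0.71 ± 0.25), Tln1 (-0.39 ± 0.31) and Zyx (0.00 ± 0.45) did not pass. The median over the 7 tested members was -1.31, beside 0.02 over all tested genes. Synpo2 passed the count filter through the control mice, with 1 AAA mouse at it, so that its entry already required a high control level. Without control mouse 1, the deepest control library, Flna alone was called. Leaving out control mouse 2 or control mouse 3 also removed the Synpo2 call, so that call needed every control mouse.

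Summed over the 9 members, the level was 81.2 ± 4.85 UMIs per 10000 in control mice (SD, n = 3) and 38.0 ± 2.98 in AAA mice, a log2 ratio of -1.10. The summed contractile markers were lower beside them, at 253 ± 50.6 in control and 94.4 ± 24.7 in AAA mice. Acta2 (log2 fold -1.47 ± 0.21), Tagln (-1.26 ± 0.23), Myl9 (-1.38 ± 0.20) and Myh11 (-1.78 ± 0.41), which encode actin, a calponin-related actin-binding protein and myosin chains of the contractile apparatus, were all called lower. Myh11 passed the count filter through the control mice, with 0 AAA mice at it. Of 14 contractile genes 12 were tested and 9 were called lower, none higher. Collagen and macrophage lists moved the other way, with 5 of 6 and 4 of 9 tested genes called higher in AAA.

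Of 51 other LIM and adhesion genes, 13 were tested over kept hexagons, 4 were called lower and none higher, with a median log2 fold of -0.20. The 4 were tensin-1 (Tns1, -1.65 ± 0.29), which binds integrin tails and actin, the LIM-only gene Fhl1 (-1.49 ± 0.32), the integrin beta-1 subunit Itgb1 (-1.25 ± 0.27) and alpha-actinin-4 (Actn4, -1.12 ± 0.29). Lasp1 (0.68 ± 0.49) and Itgav (0.78 ± 0.54) were among those that did not pass.

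When every barcode of the sections was summed, with no minimum of genes per hexagon, all 9 members passed the count filter in all 6 mice, on 238 (Lmod1) to 4140 (Flna) UMIs. This table holds the kept hexagons as well and is not independent of them. Synpo2 was at 4.47, 3.51 and 5.11 UMIs per 10000 in control and 2.04, 1.97 and 2.07 in AAA mice. Lmod1, a gene of differentiated SMCs, was at 1.51, 1.19 and 1.77 in control and 0.665, 1.12 and 0.603 in AAA mice. Both were lower in every AAA mouse than in any control mouse, with AAA mouse 2 close to control mouse 2 for Lmod1.

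Flna was at 25.3, 18.6 and 21.7 in control and 13.5, 15.3 and 14.1 in AAA mice. Actn1 was at 7.95, 7.56 and 9.14 in control and 5.01, 4.80 and 5.28 in AAA mice. Csrp1 was at 10.1, 9.08 and 9.83 in control and 6.93, 7.03 and 7.33 in AAA mice. For these 3 genes the groups were apart, by less than over kept hexagons. For Csrp2 they were not: control mouse 2 was at 3.98 and the other control mice at 8.07 and 8.55, against 3.49, 4.71 and 4.35 in AAA mice.

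For the integrin-proximal members and Zyx the gap was narrow or absent. Tln1 was at 4.64, 4.64 and 5.16 in control and 4.33, 3.96 and 4.29 in AAA mice, just below in each. Vcl was at 1.63, 0.862 and 1.57 in control and 1.02, 1.17 and 1.32 in AAA mice, and Zyx at 2.50, 2.52 and 3.34 in control and 2.95, 2.40 and 2.65 in AAA mice. The groups overlapped for Vcl and Zyx.

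**Figure D2:**
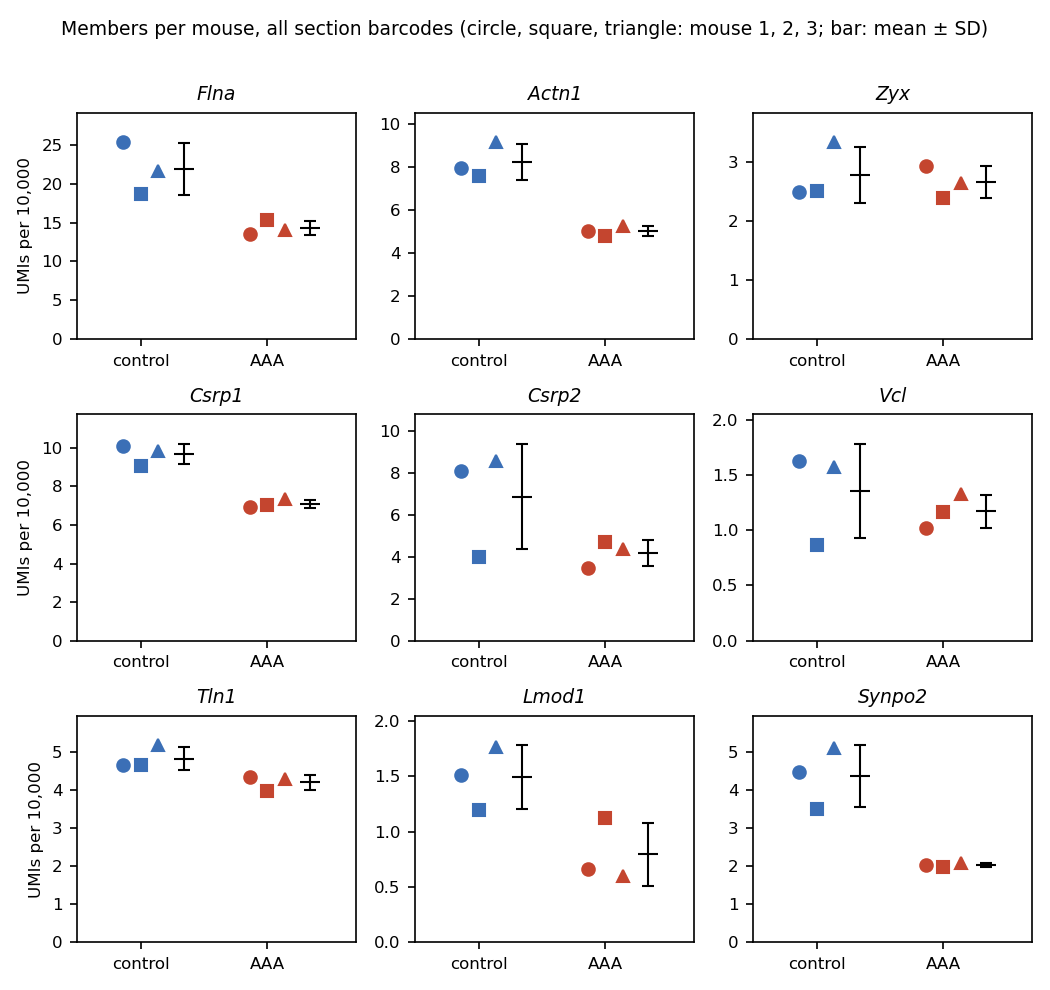
Level of each member over all section barcodes, in UMIs per 10000 UMIs (y axes start at 0), for 3 control (blue) and 3 AAA (red) mice; symbols mark the mouse number and black bars the mean and SD. Synpo2 is near 2 in every AAA mouse and above 3.5 in every control mouse, while Zyx and Vcl overlap.

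Over all section barcodes, 6 of 9 members were called lower in AAA by the same test over 6513 genes (Flna, Actn1, Csrp1, Csrp2, Lmod1 and Synpo2) and none higher, beside 1.2% of all tested genes called lower and 0.998% called higher. The groups did not overlap for 6 members (Tln1 in place of Csrp2), a pattern that 8.14% of genes showed in this direction. The log2 fold was -1.13 ± 0.15 (SE) for Synpo2, -1.003 ± 0.24 for Lmod1, -0.76 ± 0.15 for Csrp2, -0.72 ± 0.12 for Actn1, -0.63 ± 0.11 for Flna and -0.45 ± 0.11 for Csrp1. Vcl (-0.26 ± 0.22), Tln1 (-0.20 ± 0.13) and Zyx (-0.07 ± 0.16) did not pass. The median was -0.63 over the 9 members and -0.01 over all tested genes. Without control mouse 1 or without control mouse 3, the calls for Csrp1, Csrp2 and Lmod1 were lost and 3 remained. Over the 10 alternatives run for all section barcodes, Csrp1 lost its call in 6, Lmod1 in 4 and Csrp2 in 2. Flna, Actn1 and Synpo2 kept theirs in all 10. Of the 42 other LIM and adhesion genes tested here, 6 were called lower (Pdlim3, Fhl1, Lpp, Lims2, Tns1 and the integrin subunit Itga8) and none higher, and of 14 contractile genes 11 were called lower.

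**Figure D3:**
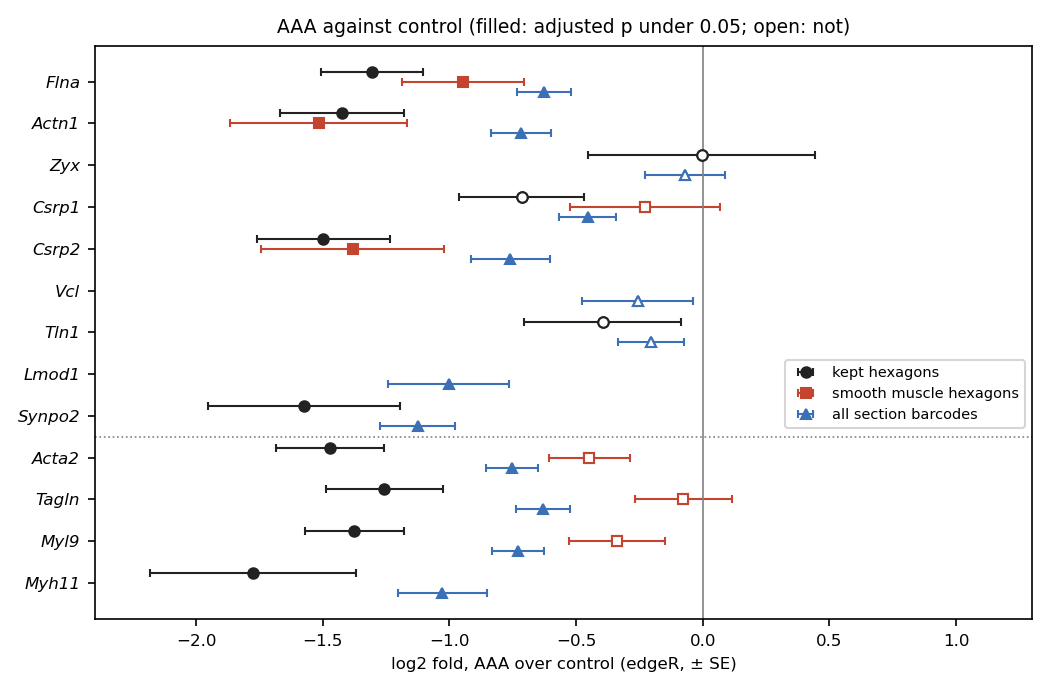
Log2 fold between AAA and control (x axis, edgeR, bars are SE) of the 9 members and 4 contractile genes below the dotted line, over kept hexagons (circles), smooth muscle hexagons (squares) and all section barcodes (triangles); filled symbols had an adjusted p under 0.05 and genes without a symbol were not tested in that table. Folds over all section barcodes are nearer 0 than over kept hexagons for all genes tested in both but Zyx, whose folds of -0.07 and 0.00 are both near 0.

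Hexagons with 25 to 74 genes, which the minimum leaves out, hold other molecules of the same mice. Here 4 of 9 members were called lower in AAA (Flna, Csrp2, Lmod1 and Synpo2), beside 1.27% of 2752 genes called lower and 0.908% called higher. Flna had a log2 fold of -0.69 ± 0.14 (SE), Synpo2 of -1.14 ± 0.24, Csrp2 of -0.74 ± 0.20 and Lmod1 of -1.28 ± 0.35. Csrp2 and Synpo2 were called although their groups overlapped through control mouse 2. That mouse was at 3.92 UMIs per 10000 for Csrp2, against 3.53 to 4.96 in AAA mice. For Synpo2 it was at 2.18, against 1.89 to 2.21 in AAA mice. Tln1 had a log2 fold of -0.03 ± 0.20. Lmod1 passed the count filter through the control mice, with 1 AAA mouse at it, so that its entry already required a high control level. With the pair of aortas embedded together as a replicate block, the count was 2 (Flna and Synpo2). Without control mouse 1, and without control mouse 3, it was 0, and without AAA mouse 1 it was 2.

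Whether the lower level holds where contractile markers are found was asked in smooth muscle hexagons. These numbered 63 to 146 per control mouse and 116 to 394 per AAA mouse, with 6633 to 17430 and 13178 to 46633 UMIs. Their class rests on contractile UMIs, so the contractile genes themselves are held up by the choice of hexagons. Contractile UMIs per hexagon averaged 3.88 to 4.50 in control and 2.80 to 3.47 in AAA mice.

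Flna was at 40.2, 49.6 and 30.2 UMIs per 10000 in control and 21.7, 17.5 and 23.4 in AAA mice. Actn1 was at 17.2, 11.8 and 10.6 in control and 5.15, 3.04 and 6.20 in AAA mice. Csrp2 was at 15.5, 14.4 and 7.54 in control and 5.36, 6.83 and 3.82 in AAA mice. For these 3 genes every AAA mouse was below every control mouse, with Csrp2 of control mouse 3 close to AAA mouse 2. Counts were low for Actn1 (46 UMIs in all control and 41 in all AAA mice) and Csrp2 (43 and 42). Actn1 had 4 UMIs in AAA mouse 2 and 7 in control mouse 3, and Csrp2 had 5 in control mouse 3. Csrp1 was at 14.3, 13.1 and 10.6 in control and 13.1, 11.4 and 8.59 in AAA mice, and these ranges overlapped.

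Of the 4 members tested among 192 genes in smooth muscle hexagons, 3 were called lower (Flna, -0.95 ± 0.24 SE; Actn1, -1.52 ± 0.35; Csrp2, -1.38 ± 0.36) and none higher, beside 3.12% of all tested genes called lower and 1.56% called higher. Those 3 of 4 did not overlap between the groups, as 9.38% of tested genes did not in this direction. Synpo2, which was not tested here, was at 6.31, 5.23 and 3.02 in control and 2.79, 1.52 and 2.38 in AAA mice. These levels rested on 17 UMIs in control and 20 in AAA mice, with 2 each in control mouse 3 and AAA mouse 2. Csrp1 was at -0.23 ± 0.30. Acta2 (-0.45 ± 0.16), Tagln (-0.08 ± 0.19) and Myl9 (-0.34 ± 0.19) did not pass, and none of 8 tested contractile genes was called; whether members and contractile genes differ in fold was not tested. Actn1 and Csrp2 passed the count filter through the control mice, with 0 and 1 AAA mice at it. Without control mouse 1 no member was called, and without the 2 sections of mouse pair 3 that touch on the map (an alternative added after the data were seen) Flna alone was called. With regions from clustering in place of classes, Flna and Actn1 were called. In these hexagons, macrophage genes were at 15.7 to 23.5 UMIs per 10000 in control and 30.9 to 45.8 in AAA mice, and their part in the folds was not tested.

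Summed over the members, smooth muscle hexagons were at 98.9 ± 11.2 UMIs per 10000 in control (SD, n = 3) and 54.5 ± 5.03 in AAA mice, a log2 ratio of -0.86. They held 69.8%, 71.7% and 74.03% of member UMIs in control mice, where they held 51.1%, 58.5% and 69.2% of the UMIs of all genes. In AAA mice they held 23.9%, 16.3% and 27.9% of member UMIs and 14.1%, 11.9% and 21.9% of all UMIs. Contractile UMIs, which set the class, lay there to 85.7% to 86.9% in control and 40.1% to 58.5% in AAA mice. Most member UMIs of the AAA wall were therefore outside the smooth muscle class.

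Among the classes of the AAA wall, Flna was at 21.7, 17.5 and 23.4 UMIs per 10000 in smooth muscle hexagons of AAA mice 1, 2 and 3, at 8.80, 12.5 and 9.43 in collagen hexagons and at 12.7, 21.4 and 17.0 in macrophage hexagons. It was higher in smooth muscle than in collagen hexagons in 3 of 3 mice. Csrp1 was at 13.1, 11.4 and 8.59 in smooth muscle, 4.37, 5.73 and 7.07 in collagen and 5.51, 6.10 and 5.67 in macrophage hexagons, so that smooth muscle was the highest class in each mouse. Csrp2 was at 5.36, 6.83 and 3.82 in smooth muscle, 3.36, 1.99 and 2.36 in collagen and 2.75, 3.05 and 5.67 in macrophage hexagons, so that smooth muscle was above collagen in each mouse and below macrophage in AAA mouse 3. Actn1 was at 5.15, 3.04 and 6.20 in smooth muscle, 3.22, 4.99 and 2.36 in collagen and 5.51, 4.07 and 9.93 in macrophage hexagons. Its level was above smooth muscle in the macrophage hexagons of 3 of 3 mice, on 21 UMIs, and in the collagen hexagons of AAA mouse 2. In AAA mouse 2, smooth muscle and macrophage hexagons held 4 Actn1 UMIs each. The share of all genes with such class orders was not computed.

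With the mouse as a block, Flna (log2 fold 1.12 ± 0.19 SE) and Csrp1 (1.12 ± 0.27) were called higher in smooth muscle than in collagen hexagons by the same test, 2 of 6 tested members beside 4.38% of 594 genes, and no member was lower, beside 3.7% of genes. Csrp2 (0.89 ± 0.31), Actn1 (0.58 ± 0.32) and Zyx (0.19 ± 0.36) did not pass, and Tln1 was at 0.00 ± 0.44. The members were selected with class levels in view, so these calls are a description as well, and without AAA mouse 1 no member was called. Acta2 was at 2.34 ± 0.11 and Tagln at 2.90 ± 0.13 in the same comparison, in which they define the class.

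Against macrophage hexagons, 2 members were tested and none was called in either direction, beside 4.33% of 208 genes called higher in smooth muscle and 8.65% called lower. Csrp1 was at 1.02 ± 0.37 and Flna at 0.38 ± 0.26. DESeq2 also called neither member. Csrp1 passed the count filter through smooth muscle hexagons, with 3 mice at it there and 0 in macrophage hexagons, so that its entry already required a high smooth muscle level. Macrophage hexagons held 63 to 137 hexagons and 7051 to 18157 UMIs per AAA mouse. Control mice had 0 to 2 macrophage hexagons, so no comparison of conditions was made there.

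**Figure D4:**
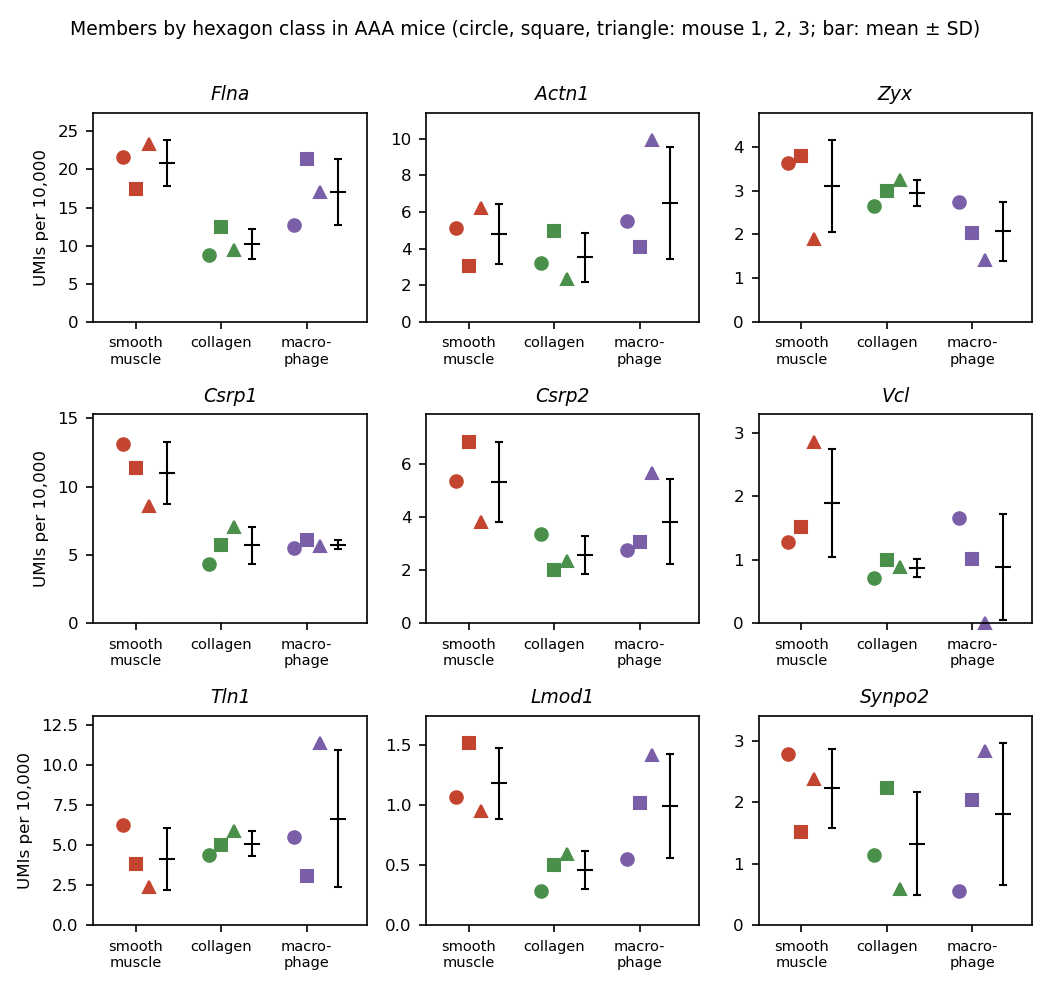
Level of each member in smooth muscle (red), collagen (green) and macrophage (purple) hexagons of the 3 AAA mice, in UMIs per 10000 UMIs (y axes start at 0); symbols mark the mouse number and black bars the mean and SD. Flna and Csrp1 are higher in smooth muscle than in collagen hexagons of every mouse, while Zyx and Tln1 show no such order.

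The remaining members were thin in the classes. Tln1 was at 6.22, 3.79 and 2.38 in smooth muscle, 4.37, 4.99 and 5.89 in collagen and 5.51, 3.05 and 11.3 in macrophage hexagons, with no class highest in all mice. Lmod1 had 9, 8 and 3 UMIs and Vcl 14, 17 and 4 UMIs in the 3 classes over all AAA mice. Vcl had 0 UMIs in macrophage hexagons of AAA mouse 3. In adipocyte hexagons, where SMC genes should be scarce, the members summed to 23.3, 27.9 and 8.99 UMIs per 10000 in AAA mice 1, 2 and 3, on 91, 28 and 6 UMIs, against 50.8 to 60.3 in smooth muscle hexagons. The sum was 28.9 to 36.9 in collagen and 37.5 to 55.3 in macrophage hexagons.

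Outside the smooth muscle class of the AAA wall, hexagons within 45 μm of a smooth muscle hexagon were compared with those farther away. Csrp2 was at 4.44, 3.32 and 4.19 UMIs per 10000 near and 2.17, 2.17 and 2.39 far in AAA mice 1, 2 and 3. It was higher near in each mouse, as were Flna (12.3, 13.5 and 12.6 near, 8.61, 11.9 and 9.79 far) and Actn1 (4.44, 4.49 and 4.19 near, 3.64, 3.68 and 3.48 far). Zyx, Csrp1, Vcl, Tln1 and Synpo2 were higher near in some mice and lower in others. Lmod1 was lower near in each mouse, on few UMIs. The sum over the members differed by 0.39, -0.03 and 0.58 on the log2 scale, and that of the contractile markers by 0.29, 0.38 and 0.54. No test was made on 3 mice, and the share of all genes higher near in each mouse was not computed. In AAA mouse 3, Csrp2 rested on 12 UMIs near and 11 far, and Actn1 on 12 and 16.

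Set against contractile UMIs, a ratio that does not depend on library size, the order of AAA and control mice depended on which hexagons were summed. Over all section barcodes, Actn1 was at 4.25, 5.22 and 4.81 UMIs per 100 contractile UMIs in control and 4.90, 4.85 and 4.38 in AAA mice, and Flna at 13.5, 12.9 and 11.4 in control and 13.2, 15.4 and 11.7 in AAA mice. These ratios overlapped, as did those of Csrp1, Csrp2 and Lmod1. Synpo2 was at 2.39, 2.43 and 2.69 in control and 1.99, 1.99 and 1.72 in AAA mice, lower in each AAA mouse. Such a pattern was shown by 0.277% of 6507 genes. Contractile UMIs were fewer in AAA mice, which raises such ratios, so nothing is read from that low share for Synpo2. Over kept hexagons its ratio overlapped (1.72, 2.38 and 1.34 in control, 1.60, 2.22 and 1.03 in AAA mice), as it did in hexagons of 25 to 74 genes and in smooth muscle hexagons.

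Tln1 was at 2.48, 3.21 and 2.72 per 100 contractile UMIs in control and 4.24, 3.99 and 3.57 in AAA mice. Zyx was at 1.33, 1.74 and 1.76 in control and 2.88, 2.42 and 2.20 in AAA mice, and Vcl at 0.868, 0.596 and 0.828 against 1.00, 1.18 and 1.10. All 3 were higher in each AAA mouse, but so were 53.2% of all genes, since contractile UMIs were fewer there. An exact permutation test over 3 against 3 mice cannot go below a two-sided p of 0.1, and none was made. Zyx and Tln1 were also higher in each AAA mouse over kept hexagons and at 25 to 74 genes. Vcl overlapped in both, and Csrp1 was higher over kept hexagons. The share of all genes with such an order was computed over all section barcodes alone, so nothing is read from the orders in other hexagons. In smooth muscle hexagons no member was higher in each AAA mouse, while Actn1 (4.57, 3.57 and 2.703 in control, 1.79, 1.23 and 1.91 in AAA mice) and Flna (10.7, 15.1 and 7.72 in control, 7.52, 7.08 and 7.21 in AAA mice) were lower in each, as were the summed members. Contractile UMIs also set the smooth muscle class, so the divisor of the ratios there is held up by the choice of hexagons. Over all section barcodes, the summed members were at 34.8 to 35.9 per 100 contractile UMIs in control and 34.9 to 42.8 in AAA mice.

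Across the 20 sections of kept hexagons, the summed members ran from 46.7 to 135 UMIs per 10000 (median 88.2) in control sections and from 30.9 to 64.5 (median 37.9) in AAA sections. Sections of 1 mouse are not independent, and the lowest control section rested on 13 member UMIs. The ranges overlapped over sections although they did not over mice. Flna had no UMI in 1 control section, and Lmod1 had none in 5 control and 3 AAA sections.

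The 10 genes whose level over the 20 sections was most like that of the summed members, among 997 genes with 100 or more UMIs, were Acta2 (Pearson r = 0.897), Pdia3 (0.872), Cnn1 (0.857), Myl9 (0.855), Sost (0.851), Tagln (0.847), Itgb1 (0.839), Pls3 (0.829), Tpm2 (0.818) and Pttg1ip (0.814). Of these, 5 are smooth muscle class markers, Itgb1 is an integrin subunit and Pls3 is an actin-bundling plastin. The sections share mouse, condition and depth, and within the 10 AAA sections r was 0.684 for Acta2, 0.878 for Pdia3 and 0.146 for Sost.

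The number of UMIs at 1 barcode set Csrp2 apart. Of its 1228 UMIs in the sections, 27.4% lay at barcodes with 2 or more, against 6.94% (Tln1) to 13.6% (Flna) for the other members and 8.74% over all genes. The share for Csrp2 was 37.4%, 28.3% and 39.1% in control mice and 17.6%, 27.1% and 27.0% in AAA mice. Counting each gene at most once per barcode, the Csrp2 log2 fold over kept hexagons was -1.20 in place of -1.50, and it was still called. In smooth muscle hexagons it was -0.997 and no longer called.

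Introns entered unequally. Exonic UMIs were 98.8% of whole-gene UMIs for Flna and 96.6% for Zyx, but 58.3% for Lmod1, 56.0% for Synpo2 and 47.4% for Vcl, beside 43.7% over all genes. With UMIs over whole genes, Synpo2 had a log2 fold of -1.03 over kept hexagons and was not called, while Flna (-1.12), Actn1 (-1.25) and Csrp2 (-1.24) were called.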

How the data were processed

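The authors deposited UMI counts per gene and barcode, with sections pooled, made with STARsolo 2.7.5c on mm10 (the analysis of the study used Seurat 4). Its exonic counts were used here, with whole-gene counts as an alternative. Symbols beginning mt or Gm were left out. GEO's labels give the conditions only for the pooled array, so section, mouse and condition came from the published section map: 38 outline edges were fitted with a residual SD of 86.8 μm. Counts were summed per mouse and tested with edgeR 4.0.16 (TMM, filterByExpr with a minimum count of 10, quasi-likelihood test, Benjamini-Hochberg adjustment over all genes tested), with DESeq2 1.42.0 and Seurat 5.3.0 clustering (30 components, resolution 0.8, members left out) as alternatives. SEs are the log2 fold over the root of the F statistic.

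The members, lists and tests were chosen with earlier results of these data known. Named genes were the 9 members, other LIM and adhesion genes called over kept hexagons, 4 contractile genes, and the 10 genes most like the members over sections (Pearson r, prior of 1 UMI). Pdlim3, Lpp, Lims2, Itga8, Lasp1 and Itgav were named after their values were seen. Separate mice are the replicates.

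Aortas of 1 number shared a block of embedding medium. Over kept hexagons, deviations from the group means correlated between same-numbered mice at r = 0.0460, 7.63e-05 and 0.0416. Each fit was tested on simulated counts first. Lane 1 was not used here, and protein sequences were not used here.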

Additional observations from a re-analysis of the deposited data

How the results depend on the processing

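Directions held for the called members in every alternative run, with fewer calls in several. With no filter on low counts, the median over all genes shifted to 1.27 over kept hexagons, 0.80 in smooth muscle hexagons, 0.37 at 25 to 74 genes, 0.15 over all section barcodes, -0.50 against collagen and 0.85 against macrophages (log2), and the number of members called lower was 0 in kept, smooth muscle and 25 to 74 gene hexagons, while the collagen comparison held 1. In smooth muscle hexagons the count was 1 with DESeq2, whole-gene UMIs, 50 or more genes, 100 or more genes, a class minimum of 3 UMIs, or without the 2 touching sections (added after the data were seen). Against collagen it was 1 with DESeq2 or each gene once per barcode and 4 at 50 or more genes, and against macrophages 1 with library size alone, each gene once per barcode or clustered regions. In hexagons with 25 to 74 genes it was 2 with DESeq2, each gene once per barcode or the replicate block, and 0 with whole-gene UMIs. The replicate block changed no other count of members. Without the mouse as a block, the class comparisons kept 2 and 0.

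Leaving out 1 mouse at a time gave 1 to 5 calls over kept hexagons, 0 to 3 in smooth muscle hexagons, 0 to 2 against collagen, 0 to 0 against macrophages, 0 to 4 at 25 to 74 genes and 3 to 6 over all section barcodes. The log2 ratio of the summed members over kept hexagons (-1.10) was -0.95 at 50 or more genes, -0.83 with whole-gene UMIs, -0.98 with each gene once per barcode, -0.57 over all section barcodes, -1.26 on a shifted grid and -0.99 without Flna. In smooth muscle hexagons (-0.86) it was -0.66 at 50 or more genes, -0.60 with whole-gene UMIs and -0.66 with a class minimum of 3.

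Reversals touched uncalled members. Zyx over kept hexagons was 0.0023 with library size alone, 0.66 without the filter, 0.21 with whole-gene UMIs and 0.23 with each gene once per barcode, and -0.37 to 0.56 with a mouse left out. Tln1 was 0.29 without the filter and 0.25 at 100 or more genes. Csrp1 in smooth muscle hexagons was 0.34 without the filter and 0.17 with a class minimum of 3. Against collagen, Zyx was -0.16 without the filter, and Tln1 was 0.0031 with library size alone, 0.090 with whole-gene UMIs, 0.032 with each gene once per barcode, 0.10 with a class minimum of 3 and -0.86 to 0.38 with a mouse left out. At 25 to 74 genes, Zyx was 0.0097 without the filter, and Tln1 was 0.26 without the filter, 0.21 with whole-gene UMIs and -0.090 to 0.0059 with a mouse left out. Over all section barcodes, Zyx was 0.055 without the filter and -0.14 to 0.12 with a mouse left out. The causes were not tested.

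Of 466 log2 folds of single members under an alternative, 364 kept direction and call, 67 lost a call, 10 gained one and 25 reversed. With 9581 to 34106 UMIs in kept hexagons of a control mouse, Vcl and Lmod1 were too sparse to test there.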
